A study of Mus musculus with 12 samples.

Results

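The genes of the mitochondrial genome were taken from the count table as the rows whose symbol starts with mt-, which gave 37 of 49585 genes: 13 protein genes, 2 rRNAs (mt-Rnr1 and mt-Rnr2) and 22 tRNAs. RNA-seq had been performed on sorted lymph node (LN) T cells of 4 groups with 3 samples each, 12 in all, every sample being a pool of sorted cells from male mice of 6 to 10 weeks. B6 CD4+ and B6 CD8+ T cells came from unmodified C57BL/6 mice. CD8.1 and CD8.2 T cells came from CD8Dual mice (also labelled 8in4), in which both Cd4 alleles were altered to encode CD8α.1 and CD8β while the intact Cd8 locus encodes CD8α.2, so that CD8 is made from either locus. All sorted cells were CD62L+ and bound the anti-TCRβ antibody H57 per the labels, and the methods add a CD44− gate. No animal received a treatment, and the labels name no batch, day or litter.

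The mitochondrial genome is a small circle that is transcribed from both strands into long precursor RNAs. In most places tRNAs stand between the genes and are cut out, which frees the mRNAs and rRNAs, and the mRNAs then receive short poly(A) tails. Its 13 proteins are all subunits of the respiratory chain or of the ATP synthase, where they assemble with proteins made from nuclear genes, while its rRNAs and tRNAs serve the mitochondrial ribosome. Naive T cells rest on respiration and build more mitochondria upon activation. The genes are given below by role, as 7 subunits of complex I (mt-Nd1 to mt-Nd6 with mt-Nd4l), cytochrome b of complex III (mt-Cytb), 3 subunits of complex IV (mt-Co1 to mt-Co3) and 2 of the ATP synthase (mt-Atp6 and mt-Atp8). Because they are cut from shared precursors, they are not independent of each other.

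Much of this genome also has copies in nuclear DNA, and 7 annotated pseudogenes lie side by side on chromosome 1 (GRCm38, positions 24611535 to 24616197, minus strand). Stretches as long as a sequencing read are shown for 3 genes because the levels described below differed between genes with and without close copies. Each mitochondrial sequence stands above the same stretch of its most similar annotated nuclear transcript, 5′ to 3′ along the gene, and capitals mark the bases that differ (GENCODE M21 transcripts).
mt-Co3, chrM:8936-9060, plus strand: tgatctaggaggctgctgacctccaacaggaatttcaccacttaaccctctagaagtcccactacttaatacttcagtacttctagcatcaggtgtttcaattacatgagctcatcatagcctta
Gm28437, chr1:24613518-24613642, minus strand: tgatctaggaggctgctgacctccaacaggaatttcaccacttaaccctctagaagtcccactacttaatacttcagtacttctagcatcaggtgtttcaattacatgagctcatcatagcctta
mt-Nd3, chrM:9459-9583, plus strand: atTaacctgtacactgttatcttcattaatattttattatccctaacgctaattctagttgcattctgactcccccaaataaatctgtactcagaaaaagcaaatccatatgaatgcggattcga
Gm28438, chr1:24612995-24613119, minus strand: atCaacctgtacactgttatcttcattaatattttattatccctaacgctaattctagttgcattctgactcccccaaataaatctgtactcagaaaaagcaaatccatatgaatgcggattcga
mt-Cytb, chrM:14654-14778, plus strand: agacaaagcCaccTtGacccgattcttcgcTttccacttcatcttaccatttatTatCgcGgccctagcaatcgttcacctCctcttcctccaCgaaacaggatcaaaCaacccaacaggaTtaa
Gm11410, chr4:80004498-80004622, plus strand: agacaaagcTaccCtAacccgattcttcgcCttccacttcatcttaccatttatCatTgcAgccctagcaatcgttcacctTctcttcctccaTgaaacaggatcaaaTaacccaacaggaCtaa
The copy of mt-Co3, a core subunit of cytochrome c oxidase, was identical over all 783 aligned bases. The copy of mt-Nd3, a small complex I subunit, differed at 1 of 345 aligned bases, T3C, counted from the first base of mt-Nd3 with the mitochondrial base first. For mt-Cytb the nearest copy differed at 11 bases of the stretch shown.

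The total count per sample was 18667474 to 37110502, so that a gene without a count lay below 0.0875 to 0.167 CPM (the per-million scale of counts, with library sizes scaled by TMM), which is the value of 3 counts. Of 13118 genes that passed the filter on low counts, 19 were mitochondrial: all 13 protein genes, both rRNAs and 4 tRNAs. The median log2 fold change over all tested genes lay between -0.005 and 0.002 in every comparison. Genes for the T cell receptor and CD3 chains were present in all samples, with a summed level of 3810 to 4627 CPM for 6 genes. In CD8.2 replicate 3, a list of 12 structural RNAs, such as Gm42418 and Rn7sk, summed to 35447 CPM, of which 34007 CPM fell on Gm42418. In the 11 other samples the list summed to between 1001 and 9586 CPM. Whether fewer cells of a type or less RNA per cell lay behind a lower level could not be told apart in these bulk samples.

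The protein genes of the mitochondrial genome took the largest share of counts in CD8.1 T cells. Their share of all gene counts was 4.81, 5.44 and 5.13% in CD8.1 replicates 1 to 3, and 1.79, 3.01 and 2.79% in CD8.2 replicates 1 to 3. It was 3.81, 3.06 and 3.84% in B6 CD4+ T cells and 2.77, 3.20 and 2.40% in B6 CD8+ T cells. Every CD8.1 sample lay above all samples of the other groups, CD8.2 replicate 1 was the lowest of the 12, and the B6 groups overlapped. Counting error was small beside this spread, since the 95% Wilson interval of CD8.2 replicate 1 was 1.78 to 1.79%.

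**Figure D1:**
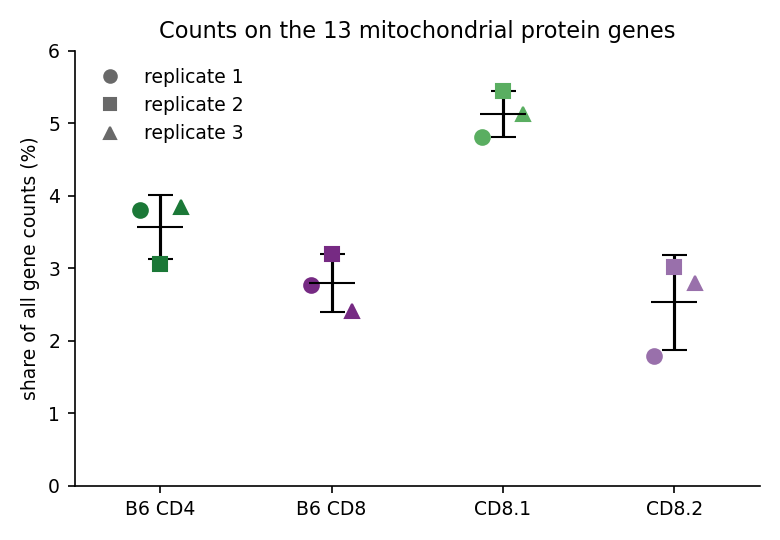
Share of all gene counts that fell on the 13 mitochondrial protein genes, in percent, for each sample (symbols by replicate number) of the 4 groups, with group mean and SD (n = 3). The CD8.1 samples sit between 4.81 and 5.44%, above the 9 other samples, and CD8.2 replicate 1 is lowest at 1.79%.

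Averaged over 3 samples, the share was 5.13% ± 0.317 (SD) in CD8.1, against 2.53% ± 0.653 in CD8.2 T cells, a ratio of 2.03 (exact two-sided permutation test, p = 0.1). Relative to B6 CD4+ T cells (3.57% ± 0.445) the CD8.1 share was 1.44 times as high (exact permutation test, p = 0.1). With 3 samples against 3, 0.1 is the smallest p that this test can give. The B6 groups differed by 0.779 percentage points (exact permutation test, p = 0.2), with 2.79% ± 0.400 in B6 CD8+ T cells. CD8.2 and B6 CD8+ T cells differed by -0.261 percentage points (exact permutation test, p = 0.7), a difference within the spread of the samples. The comparisons share samples, as the CD8.1 samples enter 2 of them, so they are not independent of each other.

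Within the protein genes, counts were uneven. In RPKM, the CPM on total counts per kb of gene, mt-Co1 had the highest median over the 12 samples, 9872, followed by mt-Cytb with 5055, mt-Nd1 with 3499, mt-Nd2 with 2535, mt-Nd5 with 1397 and mt-Nd4 with 1220. The other 7 genes lay far lower on this scale, with medians of 94.0 for mt-Co3, 93.8 for mt-Co2, 70.7 for mt-Atp6, 24.5 for mt-Nd3, 22.2 for mt-Atp8, 12.6 for mt-Nd4l and 11.5 for mt-Nd6. The split into 6 and 7 genes was made after these levels were seen, and the 6 genes held 99.0 to 99.6% of all protein-gene counts in a sample. mt-Co1 alone, the catalytic core of cytochrome c oxidase, held 42.9 to 51.2% of them.

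The low genes were, with 2 exceptions, those whose sequence is also in the nucleus. Of all read-length stretches of the gene, 99.8% of mt-Co3, 99.5% of mt-Co2, 99.5% of mt-Atp6, 98.3% of mt-Nd4l and 97.3% of mt-Nd3 were present without a difference in an annotated nuclear transcript. The proportion was 60.0% for mt-Nd4, 26.7% for mt-Co1, 0.547% for mt-Nd2 and 0 for mt-Nd1, mt-Nd5 and mt-Cytb. The exceptions were mt-Atp8, which lies between the copied mt-Co2 and mt-Atp6 and itself overlaps mt-Atp6, and mt-Nd6, the sole protein gene on the minus strand, each with 0 such stretches in an annotated transcript. The methods do not say how read pairs that fit several places were counted or whether counting used the strand, and the part of either in these levels was not tested. Counts of the 5 genes with near-complete copies could be split between near-identical sequences, so their levels and changes are uncertain. The annotated copies of these 5 genes were low as well. Their median RPKM ran from 12.2 for Gm10222 to 117 for Gm10925, against 1220 for mt-Nd4, the lowest of the 6 higher genes. How far such splitting lowered the 5 genes was not tested.

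**Figure D2:**
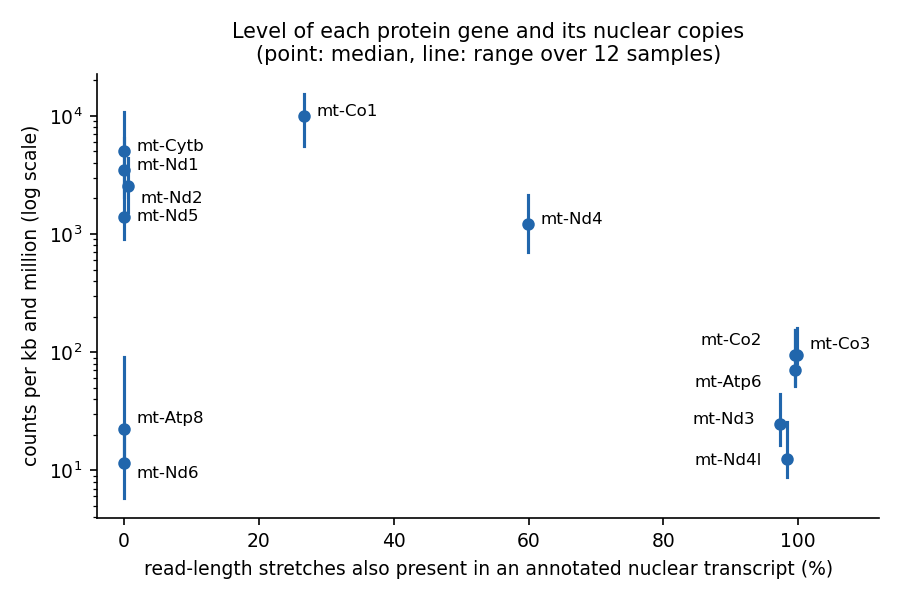
RPKM, the CPM per kb of gene (log scale; point, median; line, lowest to highest of 12 samples) of each mitochondrial protein gene against the percentage of its read-length stretches that also occur, without a difference, in an annotated nuclear transcript. The 5 genes at 97.3% or more have medians between 12.6 and 94.0, as low as mt-Atp8 and mt-Nd6 at 0%, while the other 6 genes lie at medians of 1220 or more.

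In CD8Dual mice, where CD8.1 T cells express co-receptors from the Cd4 locus and CD8.2 T cells from the Cd8 locus, most protein genes were higher in CD8.1 T cells. The edgeR quasi-likelihood fit called 9 of 13 higher in CD8.1 T cells at an adjusted p under 0.05 and 0 lower, beside 14.9% of all tested genes called higher and 13.8% called lower. Their median log2 fold change was 0.92, and 12 of 13 were above 0. The 9 genes were mt-Nd1, mt-Nd2, mt-Nd4, mt-Nd5 and mt-Nd6 of complex I, mt-Cytb of complex III, mt-Co1 and mt-Co2 of complex IV, and mt-Atp8 of the ATP synthase.

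Among the complex I subunits, mt-Nd1, which forms part of the membrane arm beside the quinone site, reached 4913, 6287 and 5334 CPM in CD8.1 replicates 1 to 3 and 1956, 3279 and 2971 CPM in CD8.2 replicates 1 to 3. The B6 levels lay between 2607 and 3696 CPM in both lineages. The CD8.1 samples lay above all others, and the difference to CD8.2 T cells was 1.01 ± 0.16 on the log2 scale (SE; adjusted p = 0.00026, edgeR). mt-Nd5, a proton-pumping subunit, had 3824, 4686 and 4985 CPM in CD8.1, against 1664, 2454 and 2368 CPM in CD8.2 T cells, with no overlap (log2 fold change 1.06 ± 0.15, adjusted p = 0.0001005, edgeR). The changes of mt-Nd2 (0.96 ± 0.15) and mt-Nd4 (1.05 ± 0.17), also pump subunits, were of like size, and the groups did not overlap for either. mt-Nd6 was at 8.2, 10.3 and 3.1 CPM in CD8.1, against 3.1, 4.1 and 4.3 CPM in CD8.2 T cells. These groups overlapped, and the call for mt-Nd6 (0.92 ± 0.33, adjusted p = 0.0497, edgeR) was lost in 5 of the 6 fits that left out a sample, the exception being that without CD8.1 replicate 3.

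mt-Cytb, the subunit of complex III that carries electrons across the membrane, had the largest change of the abundant genes. It was at 8723, 12426 and 12188 CPM in CD8.1, against 2914, 5321 and 5274 CPM in CD8.2 T cells, a log2 difference of 1.30 ± 0.20 (adjusted p = 0.000154, edgeR). Its B6 CD4+ samples were at 7135, 5782 and 7509 CPM and its B6 CD8+ samples at 4788, 5699 and 4245 CPM. For this gene all CD8.1 samples thus lay above all CD8.2 samples, and all B6 CD4+ above all B6 CD8+ samples. Of all tested genes, 19.8% had all 3 CD8.1 samples above all 3 CD8.2 samples. The share for B6 CD4+ above B6 CD8+ samples was 19.4%.

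In complex IV, mt-Co1 had 22312, 24179 and 22648 CPM in CD8.1, against 8576, 15836 and 15452 CPM in CD8.2 T cells. The groups did not overlap, and CD8.2 replicate 1 lay furthest down (log2 fold change 0.79 ± 0.18, adjusted p = 0.00325, edgeR). mt-Co2, which receives electrons from cytochrome c, changed by 0.86 ± 0.17 at a level of 36.3 to 102 CPM, and mt-Co3 by 0.33 ± 0.13, which was not called (adjusted p = 0.0608, edgeR). mt-Atp8, a short subunit of the ATP synthase, had the largest fold change of the 13, from 3.3 to 6.1 CPM in CD8.2 to 11.5 to 18.0 CPM in CD8.1 T cells (1.67 ± 0.26, adjusted p = 0.000213, edgeR). Its neighbour mt-Atp6, the proton channel subunit, was at 102, 48.2 and 54.3 CPM in CD8.1, against 50.0, 47.6 and 50.1 CPM in CD8.2 T cells, so that only CD8.1 replicate 1 stood out, and it was not called (adjusted p = 0.0987, edgeR). mt-Nd4l (0.66 ± 0.25, adjusted p = 0.0638, edgeR) and mt-Nd3 (-0.08 ± 0.22, adjusted p = 0.813, edgeR) were not called either.

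The 4 genes that were not called were among the 5 with near-complete nuclear copies. The remaining gene of these 5, mt-Co2, was called (adjusted p = 0.0014, edgeR). Of the copies themselves, 5 of 7 were called higher in CD8.1 than CD8.2 T cells and 0 lower, beside 14.9% and 13.8% of all tested genes. Among the called copies were Gm10222 (copy of mt-Nd4l, 1.08 ± 0.19), Gm10925 (mt-Atp6, 0.67 ± 0.15) and Gm28437 (mt-Co3, 0.57 ± 0.12). Gm29216 (mt-Co1, 0.38 ± 0.20) and Gm28438 (mt-Nd3, 0.65 ± 0.32) were not called. When the counts of the copies were added to their mitochondrial gene, 12 of 13 protein genes were called higher, an alternative chosen after the data were seen. Without 1 sample in turn the number of called genes was 8 to 11. No share of all tested genes called is given for these alternatives.

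**Figure D3:**
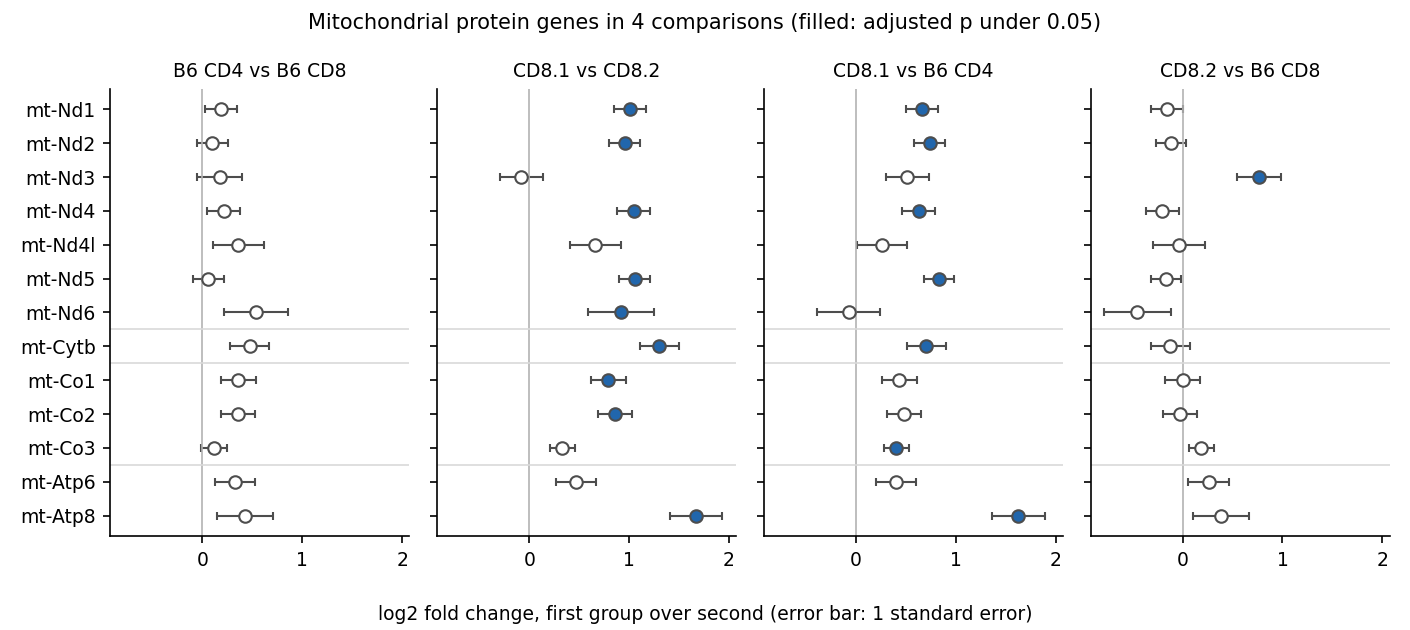
Log2 fold change with 1 standard error of the 13 mitochondrial protein genes (rows, grouped as complexes I, III, IV and ATP synthase) in 4 comparisons of 3 samples each, with filled points for genes called at an adjusted p under 0.05 (edgeR). Filled points number 9 in CD8.1 vs CD8.2, 7 in CD8.1 vs B6 CD4, 1 in CD8.2 vs B6 CD8 and 0 in B6 CD4 vs B6 CD8.

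In B6 mice the same question, how CD4+ and CD8+ T cells differ, gave a smaller difference in these genes. No protein gene of the 13 was called (0 higher and 0 lower by edgeR, and 0 by the Wald test of DESeq2), and 1 had an unadjusted p under 0.05, while 11.4% of all tested genes were called higher and 11.7% lower in B6 CD4+ T cells. All 13 log2 fold changes were above 0, from 0.06 to 0.53, with a median of 0.33. The gene with the smallest p was mt-Cytb, at 0.47 ± 0.19 (adjusted p = 0.1002, edgeR). Same-numbered B6 CD4+ and CD8+ samples had positively correlated deviations from their group means. Once the replicate numbers entered the fit as a block, mt-Cytb was called (1 of 13 genes, adjusted p = 0.0145, edgeR). With the 2 B6 groups alone in the fit, 4 of 13 were called. The share of all tested genes called in these alternative fits is not given.

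The strains were compared cell type by cell type to ask what differed in CD8.1 T cells from the B6 CD4+ lineage, and in CD8.2 T cells from the B6 CD8+ lineage. CD8.1 T cells had 7 of 13 protein genes higher than B6 CD4+ T cells and 0 lower, beside 6.94% of all tested genes higher and 5.82% lower. These were mt-Nd1 (0.66 ± 0.16), mt-Nd2 (0.74 ± 0.15), mt-Nd4 (0.63 ± 0.17), mt-Nd5 (0.83 ± 0.15), mt-Cytb (0.71 ± 0.20), mt-Co3 (0.40 ± 0.13) and mt-Atp8 (1.63 ± 0.26) on the log2 scale, with a median over all 13 genes of 0.52. mt-Co1 was at 18208, 14912 and 18054 CPM in B6 CD4+ T cells, below every CD8.1 sample, and was not called (0.43 ± 0.17, adjusted p = 0.116, edgeR). The call for mt-Co3 was lost in 4 of 6 fits that left out a sample, with a log2 fold change of 0.19 without CD8.1 replicate 1, and also with total counts, with library sizes without mitochondrial genes, with only these groups in the fit and with the shared block. mt-Nd4 and mt-Cytb were each lost in 4 of 6 such fits and mt-Nd1 in 2 of 6, in every case with the direction kept. Called genes fell to 3 without B6 CD4+ replicate 2, and to 4 without B6 CD4+ replicate 1 or without CD8.1 replicate 2, so that the count rested in part on single samples.

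CD8.2 T cells had 1 of 13 protein genes higher than B6 CD8+ T cells, mt-Nd3, and 0 lower, beside 3.29% of all tested genes higher and 4.66% lower. Over the 13 genes the median log2 fold change was -0.04, with 4 above 0, and mt-Co1 stood at -0.00071 ± 0.17. mt-Nd3 was at 13.1, 10.7 and 10.3 CPM in CD8.2, against 7.0, 7.1 and 5.8 CPM in B6 CD8+ T cells, a change of 0.77 ± 0.22 (adjusted p = 0.0445, edgeR). This call was lost in each of the 6 fits that left out a sample, with adjusted p (edgeR) between 0.0892 and 0.159.

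The nuclear copy of mt-Nd3 moved the other way. Gm28438, which differs from mt-Nd3 at the base shown above, had 53, 24 and 62 counts in CD8.2 replicates 1 to 3, beside 308, 193 and 353 counts of mt-Nd3. In B6 CD8+ replicates 1 to 3 it had 137, 169 and 93 counts, beside 171, 196 and 121 of mt-Nd3. Gm28438 was lower in CD8.2 than B6 CD8+ T cells (-1.57 ± 0.31, adjusted p = 0.0058, edgeR) and lower in CD8.1 than B6 CD4+ T cells (-0.96 ± 0.30, adjusted p = 0.045, edgeR). Per 100 counts of mt-Nd3 there were 67.4 to 86.2 counts of Gm28438 in the 6 B6 samples and 12.4 to 32.6 in the 6 CD8Dual samples, without overlap between the strains. For mt-Co3 and its identical copy Gm28437 the same ratio was 76.7 to 91.0 in B6 and 70.3 to 92.7 in CD8Dual samples, and the strains overlapped. With the counts of Gm28438 added, the mt-Nd3 change in CD8.2 T cells was 0.12 (adjusted p = 0.788, edgeR). These ratios were looked at after the mt-Nd3 call had been seen and were not tested, and the labels do not give the mitochondrial strain of the CD8Dual mice.

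**Figure D4:**
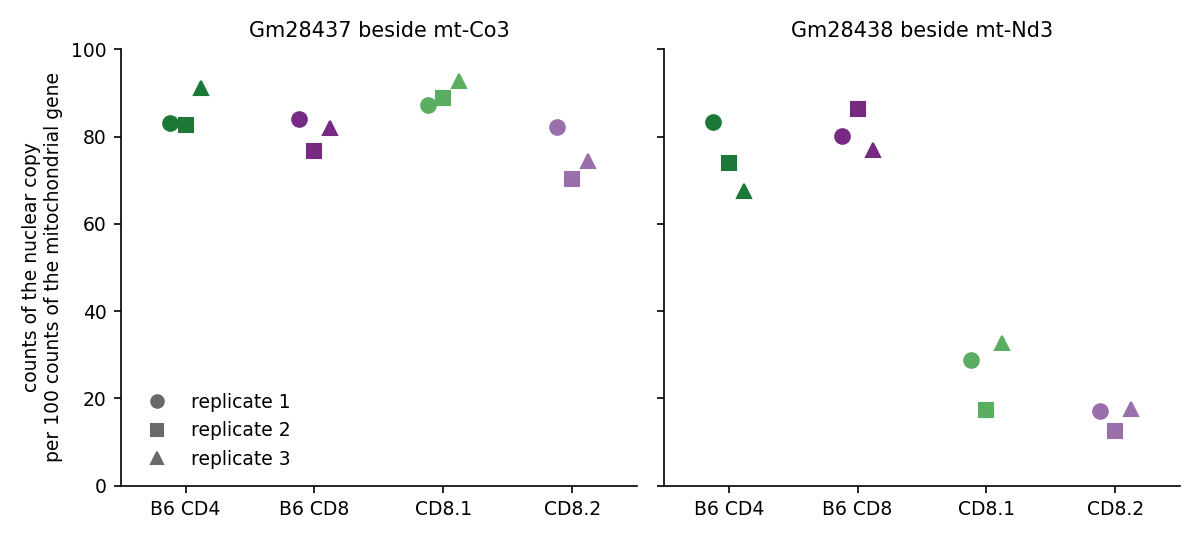
Counts of the nuclear copy per 100 counts of the mitochondrial gene in each sample (symbols by replicate number), for Gm28437 with mt-Co3 on the left and Gm28438 with mt-Nd3 on the right. The strains overlap on the left, and on the right the B6 samples lie at 67.4 or more and the CD8Dual samples at 32.6 or less.

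Below, CD4-type stands for B6 CD4+ or CD8.1 T cells and CD8-type for B6 CD8+ or CD8.2 T cells. Whether the CD4-type to CD8-type difference was larger in CD8Dual than in B6 mice was tested as an interaction. It was called for 1 of 13 protein genes, mt-Nd5, and for 0 in the other direction, beside 1.58% of all tested genes positive and 0.29% negative. For mt-Nd5 the log2 difference was 1.06 in CD8Dual and 0.06 in B6 mice, so that the strains differed by 1.00 ± 0.21 (adjusted p = 0.0227, edgeR). The B6 levels of mt-Nd5 were 2803, 2250 and 2522 CPM in CD4+ and 2448, 2842 and 1975 CPM in CD8+ T cells, which overlapped. mt-Nd1, mt-Nd2, mt-Nd4, mt-Cytb and mt-Atp8 had interaction terms of 0.82 to 1.25 and were not called, with adjusted p (edgeR) between 0.0592 and 0.192. The call for mt-Nd5 was lost in 6 of 12 fits that left out a sample. Without CD8.1 replicate 1, 5 genes were called, and 6 were called when each strain's replicate numbers formed a block. For these fits too, no share of all tested genes called is given.

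Both mitochondrial rRNAs, the RNA cores of the small (mt-Rnr1) and large (mt-Rnr2) mitochondrial ribosome subunits, had medians of 280 and 272 RPKM, below the 6 abundant protein genes, in RNA that the labels give as polyadenylated, and neither was called in any of the 5 comparisons. For mt-Rnr1, CD8.1 T cells had 445, 451 and 400.4 CPM, CD8.2 T cells 174, 256 and 607 CPM, B6 CD4+ T cells 278, 212 and 289 CPM, and B6 CD8+ T cells 197, 194 and 206 CPM. For mt-Rnr2, CD8.1 T cells had 727, 535 and 458 CPM, CD8.2 T cells 339, 432 and 876 CPM, B6 CD4+ T cells 564, 408 and 452 CPM, and B6 CD8+ T cells 382, 405 and 325 CPM. CD8.2 replicate 3 had the highest level of both rRNAs among the 12 samples. In that sample Gm42418, an abundant transcript of the structural RNA list that is not protein coding, took 3.14% of all counts, against 0.0878 to 0.888% in the others.

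Relative to the mitochondrial protein genes, the rRNAs had 4.91 counts per 100 in CD8.2 replicate 3 and 1.63 to 2.87 in the other samples. Without this sample, both were called higher in CD8.1 than CD8.2 T cells: mt-Rnr1 by 1.00 (adjusted p = 0.000287, edgeR) and mt-Rnr2 by 0.56 (adjusted p = 0.0421, edgeR), against 0.32 ± 0.30 and 0.06 ± 0.26 with all samples. The number of called protein genes was 8 without it, close to the 9 with it. Without CD8.2 replicate 1, mt-Rnr1 was called higher in CD8.2 than B6 CD8+ T cells (1.12, adjusted p = 0.0173, edgeR), against 0.80 ± 0.30 with all samples. That fit kept CD8.2 replicate 3 at 607 CPM beside replicate 2 at 256 CPM, against 194 to 206 CPM in B6 CD8+ T cells. With only the groups compared in the fit, mt-Rnr1 and mt-Rnr2 were called higher in B6 CD4+ than B6 CD8+ T cells (adjusted p = 0.0173 and 0.0424, edgeR) and mt-Rnr1 in CD8.1 than B6 CD4+ T cells (adjusted p = 0.00915, edgeR). The part of structural RNA in these rRNA levels was not tested.

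**Figure D5:**
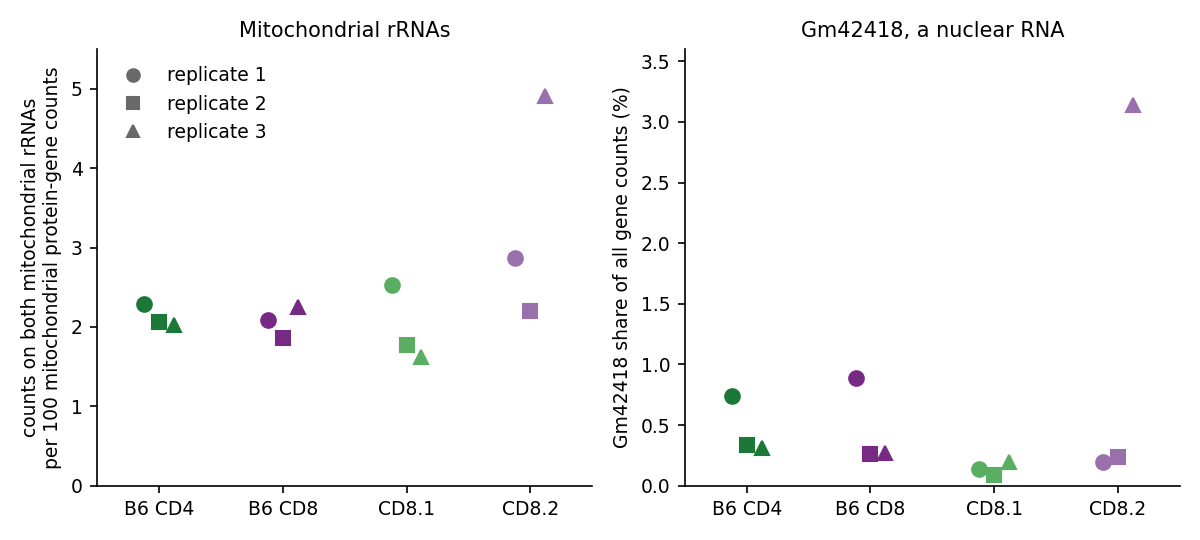
Left, counts on both mitochondrial rRNAs per 100 counts on the mitochondrial protein genes; right, share of all gene counts on Gm42418 in percent; each point is a sample (symbols by replicate number). CD8.2 replicate 3 is highest in both plots, at 4.91 and 3.14%.

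The tRNAs, which carry amino acids to the mitochondrial ribosome and are shorter than the reads, were close to undetectable. All 22 together had 2107 counts over the 12 samples, 7 had 0 counts in every sample, and the 8 on the minus strand had 80 counts in all. The 4 that passed the filter were mt-Tw (tryptophan) with 38 to 123 counts a sample, mt-Tt (threonine) with 33 to 77, mt-Tl1 (leucine) with 9 to 44 and mt-Tm (methionine) with 3 to 32. Each of these adjoins an abundant mRNA or rRNA in the genome. None was called in any comparison, the nearest being mt-Tm in CD8.1 against CD8.2 T cells (1.21 ± 0.46, adjusted p = 0.0613, edgeR), which rested on at most 32 counts a sample. With total counts (adjusted p = 0.0465, edgeR), without the filter (adjusted p = 0.0338, edgeR) and by the DESeq2 Wald test (adjusted p = 0.0487) mt-Tm was called.

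A list of nuclear genes that copy and transcribe the mitochondrial genome, process, stabilise and translate its RNAs, or regulate mitochondrial biogenesis (such as Myc) had 55 tested members. With CD8.1 set against CD8.2 T cells, 1 (1.82%) was called higher and 7 (12.7%) lower, the latter close to the 13.8% of all tested genes called lower, with a median log2 fold change of -0.12, beside -0.005 over all genes. The 5 with the smallest p were Lrpprc, which binds and stabilises mitochondrial mRNAs (-0.49 ± 0.08), Fastkd2, which binds the large rRNA (-0.48 ± 0.13), Polg, the catalytic subunit of the mitochondrial DNA polymerase (0.34 ± 0.10), the transcription elongation factor Tefm (-0.55 ± 0.16) and Trnt1, which completes tRNA ends (-0.35 ± 0.11). In B6 mice 2 (3.64%) were called higher and 3 (5.45%) lower in CD4+ T cells, below the 11.4% and 11.7% of all tested genes, namely Polg (0.57 ± 0.10) and the poly(A) polymerase Mtpap (0.29 ± 0.10) upward, and 1110008L16Rik (-0.61 ± 0.13), Myc (-0.50 ± 0.12) and Lrpprc (-0.29 ± 0.08) downward. Relative to B6 CD4+, CD8.1 T cells had 2 (3.64%) higher, Myc (0.42 ± 0.12) and the nuclease Rexo2 (0.29 ± 0.07). Lower were 2 (3.64%), Tbrg4 (-0.35 ± 0.10) and Ptcd3 (-0.26 ± 0.08). These shares were below the 6.94% and 5.82% of all tested genes. CD8.2 against B6 CD8+ T cells had 0 higher and 1 (1.82%) lower, Tbrg4 (-0.49 ± 0.10), beside 3.29% and 4.66% of all tested genes. The interaction had 0, beside 1.58% positive and 0.29% negative.

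The nuclear-encoded partners of the 13 proteins changed little. Of 78 tested nuclear subunits of the respiratory chain and ATP synthase, 4 (5.13%) were called higher and 5 (6.41%) lower in CD8.1 than CD8.2 T cells, beside 14.9% and 13.8% of all tested genes, with a median of 0.02, where the mitochondrial protein genes had a median of 0.92. Ndufa12 was the called subunit with the largest rise (0.39 ± 0.14) and Ndufa10 that with the largest fall (-0.42 ± 0.07). The counts were 2 (2.56%) and 3 (3.85%) in CD8.1 relative to B6 CD4+ T cells, beside 6.94% and 5.82% of all tested genes. In B6 mice they were 0 and 3 (3.85%), beside 11.4% and 11.7%. They were 0 and 0 for CD8.2 against B6 CD8+ T cells (3.29% and 4.66% of all genes) and for the interaction (1.58% and 0.29%). Every median lay between -0.01 and 0.03. Of 77 tested proteins of the mitochondrial ribosome, 8 (10.4%) were called higher and 8 (10.4%) lower in CD8.1 than CD8.2 T cells (median 0.01). These shares were also under the 14.9% and 13.8% of all tested genes. Relative to B6 CD4+ T cells, 7 (9.09%) were higher in CD8.1 T cells, beside 6.94% of all genes, and 0 were lower (median 0.10), with Mrps25 (0.52 ± 0.12) changed most. In B6 mice 1 (1.3%) was higher and 1 (1.3%) lower, beside 11.4% and 11.7% of all genes. In CD8.2 against B6 CD8+ T cells 1 (1.3%) was higher (Mrps6, 0.39 ± 0.10) and 0 lower, beside 3.29% and 4.66%. The interaction called 0.

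Markers of other T cell states and cell types also differed between these groups. Over all tested genes, 6.94% were called higher and 5.82% lower in CD8.1 than B6 CD4+ T cells. Against CD8.2 T cells these shares were 14.9% and 13.8%. The regulatory T cell markers Foxp3, Il2ra, Ctla4 and Ikzf2 were called higher in CD8.1 T cells, 4 of 4 against CD8.2 and 4 of 4 against B6 CD4+ T cells, and their summed level was 271 to 299 CPM in CD8.1, 73.2 to 109.9 CPM in B6 CD4+, 7.62 to 10.5 CPM in CD8.2 as opposed to 5.24 to 9.67 CPM in B6 CD8+ T cells. Of 5 memory markers, which include Cd44 and Cxcr3, 5 were called higher in CD8.1 than B6 CD4+ T cells, and 1 was higher and 4 lower in CD8.1 than CD8.2 T cells. Cd44 was the higher one, at a mean of 72.0 CPM in CD8.1 against 55.2 CPM in CD8.2 T cells. Cxcr3 was among the lower ones, at 14.6 against 107 CPM. The summed level of the 5 memory markers was 318 to 358 CPM in CD8.1 and 127 to 158 CPM in B6 CD4+ T cells. It was 547 to 588 CPM in CD8.2 as opposed to 706 to 829 CPM in B6 CD8+ T cells. Myeloid markers summed to 96.5 to 106 CPM in CD8.1, against 65.7 to 102 CPM in the other groups. Of 5, 3 were called higher in CD8.1 than B6 CD4+ T cells and 1 higher than in CD8.2 T cells. In CD8.2 against B6 CD8+ T cells 1 of 5 was called higher, beside 3.29% of all tested genes. Most of the sum was Cst3 (mean 87.0 CPM in CD8.1). Lyz2 had means of 11.5 CPM in CD8.1 and 9.96 in CD8.2, against 3.76 in B6 CD4+ and 2.30 in B6 CD8+. Itgam was lower in CD8.1 (0.77 CPM) than B6 CD4+ T cells (1.06 CPM). Erythroid and platelet markers summed to at most 25.6 CPM and NK cell markers to at most 2.60 CPM in any sample, with 0 called in CD8.1 T cells except 1 NK marker that was lower than in CD8.2 T cells. Naive T cell markers summed to 3611 to 4047 CPM over all samples, with 0 called in CD8.1 relative to B6 CD4+ T cells, and 2 higher and 1 lower relative to CD8.2 T cells. The co-receptor genes Cd4, Cd8a and Cd8b1, which the mice alter, were 2 higher and 1 lower against B6 CD4+ and 1 higher and 2 lower against CD8.2 T cells. None of the regulatory T and memory markers was at 0 in all samples. The part of such cells in the higher level of mitochondrial protein genes in CD8.1 T cells was not tested.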

How the data were processed

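RNA-seq counts were analysed for LN T cells of 4 groups with 3 samples each. The authors prepared total RNA from pooled sorted cells, made libraries with a low-input kit, sequenced paired ends, used STAR for alignment to mm10 and, per the methods, RSEM for counting, while the column names of the deposited table name STAR counts, and limma is also named in the submitters' processing notes. Versions, annotation, strand use and the treatment of read pairs that fit several places are not given in the sources used here. The deposited values are whole-number counts per gene without normalization, and 0 columns of the table were left unmapped. All samples were grouped by their labels, and nothing says that samples came from separate animals beyond their being pools, so that p-values measure the spread between these samples.

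The quasi-likelihood test of edgeR 4.0.16 under R 4.3.3 was run on the counts (TMM library sizes, filterByExpr, glmQLFTest), all 12 samples in 1 model with 4 group means, and genes were called at a Benjamini-Hochberg adjusted p under 0.05 over 13118 genes. The study names a fold limit of 5, which served as an alternative. Standard errors were derived from the fold change and F. The fit was also run on simulated counts, drawn for each gene on its own with changes in CD8.1 samples only. Such counts cannot check the fit for linked mitochondrial genes, paired samples or an outlying sample. Shares of counts were compared by exact two-sided permutation tests, and intervals are 95% Wilson intervals, which, like the floor of 3 counts, cover counting error only. Total counts per sample were 18667474 to 37110502. Replicates differed by more than sampling noise (chi-square per gene 8.77 to 87.1).

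Positions and sequences were taken from GENCODE M21 on GRCm38, where 49326 of 49585 gene IDs and all 37 mitochondrial IDs were found without regard to version. Nuclear copies were searched among annotated transcripts with blastn 2.17.0+ (e-value limit 1e-05), and copies at 97% identity or more were kept for the run on chromosome 1. Figures were drawn with matplotlib 3.10.9.

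Same-numbered B6 CD4+ and CD8+ samples had deviations correlated at 0.126, 0.138 and 0.257, and differently numbered ones at -0.221 to 0.0999. For CD8.1 with CD8.2 samples the same-numbered correlations were -0.00388, 0.0905 and 0.119, and the differently numbered ones -0.127 to 0.0321. Between the strains the same-numbered correlations were all under 0. Whether the replicate numbers in the labels pair the samples was not tested.

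The members and the gene lists were chosen with earlier results of these data known. Named genes were all protein genes and rRNAs, tested tRNAs, the 5 called genes with the smallest p of the mitochondrial gene expression list, and the called genes with the largest change of the other lists. Alternatives were DESeq2 1.42.0 (size factors, or its Wald test), total counts, library sizes without mitochondrial genes, no filter, only the groups compared, the replicate block and each sample left out; nuclear copies added to their gene, a block shared by the strains and shares without Gm42418 were added after seeing the data. The result of 1 marker list is not reported here.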

Additional observations from a re-analysis of the deposited data

Results flagged for a closer look

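The difference between CD4-type and CD8-type cells was larger in CD8Dual than in B6 mice for mt-Nd5, a complex I subunit. The interaction term was 1.00 on the log2 scale (0.9971 before rounding; SE 0.21, adjusted p = 0.0227, edgeR), from 1.06 in CD8Dual and 0.06 in B6 mice. CD8.1 samples lay above CD8.2 samples in 3 of 3, while the B6 groups overlapped. The adjusted p rose to between 0.0509 and 0.0818 (edgeR) in the 6 fits that lost the call on leaving out a sample.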

How the results depend on the processing

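Counts of called protein genes depended on the setting. With the fold limit of 5, 0 genes were past it for CD8.1 against CD8.2, CD8.1 against B6 CD4+, CD8.2 against B6 CD8+ and the interaction. Total counts in place of TMM gave 1 gene in B6 mice, 0 for CD8.2 against B6 CD8+ and 2 for the interaction. Library sizes without mitochondrial genes gave 0 for CD8.2 against B6 CD8+. Without the filter on low counts 5 were called in B6 mice, 11 for CD8.1 against B6 CD4+ and 8 for the interaction. mt-Rnr1 was then called too in every comparison but the interaction, and mt-Rnr2 in all but that and CD8.1 against CD8.2. For mt-Cytb in B6 mice the log2 fold change stayed at 0.47 without the filter, while adjusted p (edgeR) fell from 0.1002 to 1.9e-07. These added calls thus do not mean larger changes, and the share of all genes called without the filter is not given. That share is not given for the other alternative fits either. DESeq2's Wald test called 5 for the interaction, and the 2 B6 groups alone 4 in B6 mice. The replicate block gave 1 in B6 mice, 6 for the interaction and, shared by the strains, 0 for CD8.2 against B6 CD8+; it gave 8 in place of 9 for CD8.1 against CD8.2, losing mt-Nd6, and, shared by the strains, 6 in place of 7 for CD8.1 against B6 CD4+, losing mt-Co3. Whether the replicate numbers pair the samples was not tested, and same-numbered samples across strains had correlations under 0. With nuclear copies added 0 were called for CD8.2 against B6 CD8+.

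Leaving out 1 sample gave 0 to 0 calls in B6 mice, 8 to 11 for CD8.1 against CD8.2, 3 to 6 for CD8.1 against B6 CD4+, 0 to 0 for CD8.2 against B6 CD8+ and 0 to 5 for the interaction. Differences in share then were 0.585 to 1.04, 2.22 to 2.84, 1.30 to 1.71 and -0.502 to 0.111 percentage points in the same order without the interaction, the last being above 0 without CD8.2 replicate 1. Of 1425 values of single genes under an alternative, 1245 kept direction and side of the threshold, 72 passed it, 42 lost it, 66 changed sign without being called, and 0 reversed as called genes. The cause was not tested. A block within each strain could not be fitted as its own estimate between strains, and a fit with only the groups compared does not exist for the interaction. mt-Atp8, mt-Nd3, mt-Nd4l, mt-Nd6 and the tRNAs lay under 20 CPM, and the part of depth in their results was not tested.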

Other observations

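CD8.1 replicate 1 stood apart from the other CD8.1 samples in 5 of the 7 protein genes with low counts. This sample also differed from them beyond the mitochondrial genes. Chi-square per gene was 31.5 and 33.0 for replicate 1 with replicates 2 and 3, against 8.77 between replicates 2 and 3. CD8.1 replicate 1 had 18.0 CPM of mt-Atp8 against 11.5 and 12.1, 102 CPM of mt-Atp6 against 48.2 and 54.3, and 14.8 CPM of mt-Nd3 against 8.9 and 8.6. It had 7.4 CPM of mt-Nd4l against 3.4 and 5.0, and 120.0 CPM of mt-Co3 against 80.9 and 84.1. It was level with replicate 3 in mt-Co2 (102 and 101 CPM, against 86.1) and in the middle in mt-Nd6 (8.2 CPM, against 10.3 and 3.1). In the abundant mt-Nd1, mt-Nd2, mt-Nd4, mt-Nd5, mt-Co1 and mt-Cytb the same sample was the lowest of the CD8.1 samples. The balance between the rRNAs also varied, with 1.18 and 1.14 counts of mt-Rnr2 per count of mt-Rnr1 in CD8.1 replicates 2 and 3 and 1.44 to 2.08 in the 10 other samples.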
